A study of Homo sapiens with 4 samples.

Results

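The kinesin motor genes were followed in MOLM-14, a cultured line of human acute myeloid leukemia, after exposure to DZNep. Their members were all genes whose symbol is KIF or KIFC with a number and at most 1 letter from A to C, taken only from probe sets that the platform annotation gives to 1 gene. This rule gave 41 kinesin genes of 18377 genes measured. They were divided into 12 mitotic kinesins (KIF2C, KIF4A, KIF11, KIF14, KIF15, KIF18A, KIF18B, KIF20A, KIF20B, KIF22, KIF23 and KIFC1) and 29 other kinesins, most of them transport motors. Where a gene had several probe sets, the one with the highest mean log2 intensity over the arrays was used. The division was made by function and not by measured values, but with earlier results of these data known.

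RNA came from 2 samples treated with DZNep at 2 µM and 2 samples given only the solvent DMSO, all collected at 24 h, and each was hybridised to 1 Affymetrix whole-transcript array. DZNep (3-deazaneplanocin A) blocks S-adenosylhomocysteine hydrolase and so inhibits many methyltransferases, among them the Polycomb enzyme EZH2. MOLM-14 has monocytic features. Nothing in the labels tells whether the biological replicates came from separate cultures, so p-values reflect the spread among these arrays alone, which may be technical. With so few arrays, every value has limited precision.

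Kinesins are motor proteins that turn the energy of ATP into movement along microtubules or into the shortening of microtubule ends. One set acts in cell division, where its members push spindle poles apart, move and align chromosomes and build the midzone at which the cell is cut. The genes of that set are transcribed mostly in late S phase, G2 and mitosis, so that in a growing leukemia line their RNA follows the cell cycle. The transport kinesins carry vesicles, mitochondria, endosomes and ciliary parts in cells that do not divide as well as in those that do.

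Much of the mitotic set was lower after DZNep, while the other kinesins were called at a share near that of all genes. Of the 12 mitotic kinesins, 6 fell and none rose at an adjusted p of 0.05 (limma, Benjamini-Hochberg over all genes), where 6.68% of all genes were called lower and 3.62% higher, 10.3% in all. Of the 29 other kinesins, 3 fell and 1 rose, so that 13.8% were called in either direction, against the 10.3% of all genes. The median log2 fold change, DZNep minus DMSO, was −0.39 over the mitotic kinesins and −0.003 over the others, against 0.02 over all genes. KIF15 fell the most of all 41, to 2.15-fold lower with DZNep, and KIF21B, KIF2C and KIF20B followed. The falls were moderate in size, and 4 of the 10 called kinesins changed by 1.5-fold or more. With 2 arrays a group, an exact permutation test on 1 gene has a smallest two-sided p of 0.333, so each call rests on limma's pooling of the spread over genes.

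**Figure D1:**
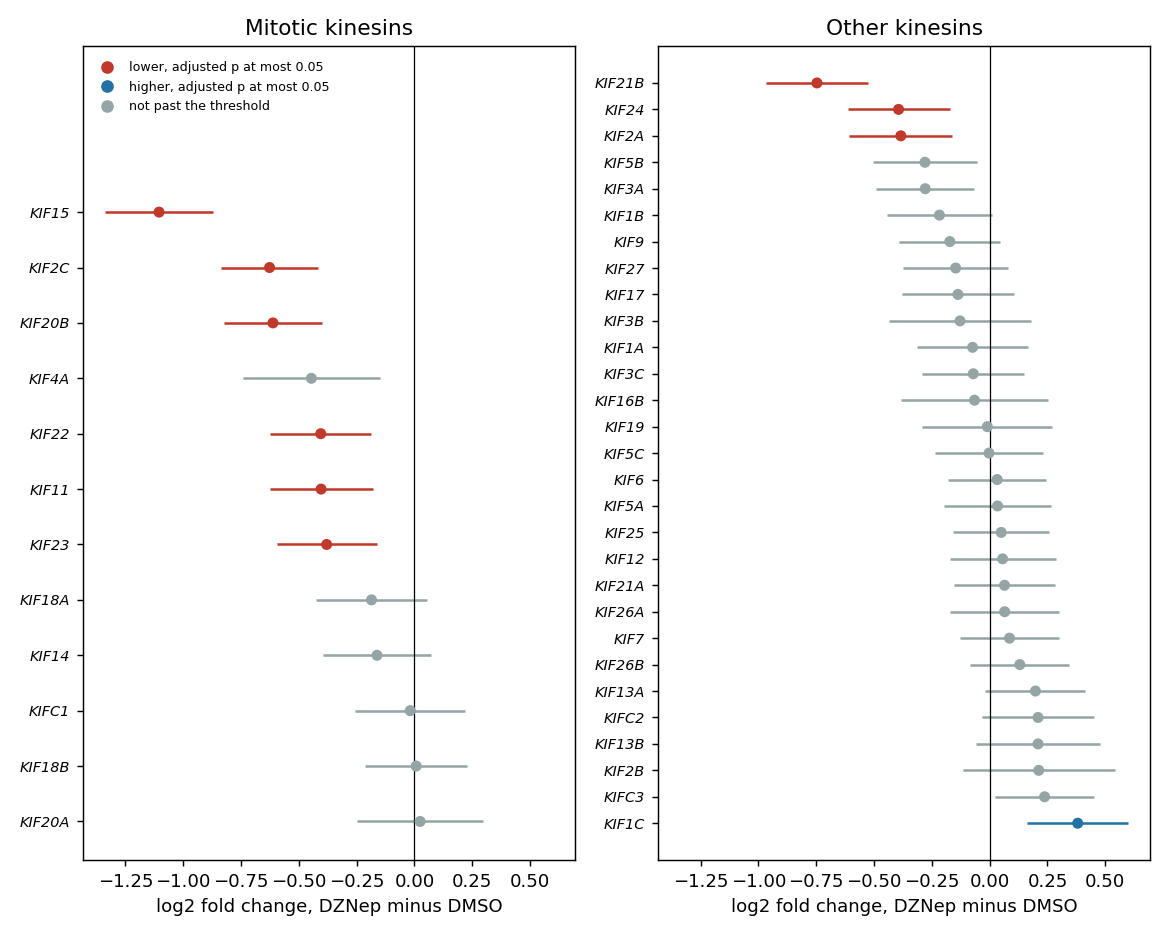
Log2 fold change of each kinesin gene, DZNep minus DMSO (x axis), with its 95% limma interval (line), for the 12 mitotic kinesins on the left and the 29 others on the right. Red marks genes lower and blue genes higher at an adjusted p of 0.05; 6 mitotic kinesins and 3 others are red, and KIF1C alone is blue.

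The promoters of the mitotic kinesins shared sequence features that the choice of members did not use. Many genes of G2 and mitosis carry a cell cycle homology region (CHR), the site of the DREAM repressor and of its activating counterpart with MYBL2 and FOXM1, a short way downstream of CCAAT boxes bound by the factor NF-Y. RefSeq promoters on GRCh38.p14, from 250 bases before to 50 bases after the gene start, were found for all 12 mitotic kinesins and for 21 of the others. The CHR letters TTTGAA, sought on both strands, were in 9 of the 12 mitotic promoters and in 1 of the 21 others, against 15.4% of 27305 promoters of the same length. The CCAAT letters were in 10 of 12 and in 6 of 21, against 35.7% of all. Both motifs together were in 8 of 12 and in 1 of 21, against 6.08% of all. The variant TTCGAA was in KIF22 and KIF24 among the kinesins, 1.45% of all promoters holding it, and the E2F-like letters TTTNNCGC were in 2 of 12 and 3 of 21, against 6.9% of all. The first CHR base lay between −55 and 31 from the gene start in each of the 9 mitotic promoters. The CHR letters did not part the mitotic kinesins that fell from those that did not pass the test, since 4 of the 9 with them fell and 2 of the 3 without them fell. A match is a description of letters, not a bound site.

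The 100 bases before the start of 8 kinesins, 5′ to 3′ on the gene's strand from RefSeq on GRCh38.p14, are given to show this arrangement, with matches on either strand in capitals. KIF15, KIF11 and KIF23 fell and hold the CHR letters, which in KIF15 directly follow the E2F-like match and in the others follow a CCAAT match. KIF4A has the same pair and missed the threshold. KIF22 fell and has a CCAAT match before the TTCGAA variant. KIF2C fell with no match, KIF20A did not pass the test and has CCAAT matches without CHR, and KIF1C, the kinesin that rose, has no match.
KIF15 (GRCh38.p14, chr3:44761694-44761793, plus strand): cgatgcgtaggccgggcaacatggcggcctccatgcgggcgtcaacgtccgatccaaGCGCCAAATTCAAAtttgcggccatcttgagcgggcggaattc
KIF11 (GRCh38.p14, chr10:92593030-92593129, plus strand): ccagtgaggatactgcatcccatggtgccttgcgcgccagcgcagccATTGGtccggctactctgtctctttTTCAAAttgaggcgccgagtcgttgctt
KIF23 (GRCh38.p14, chr15:69414249-69414348, plus strand): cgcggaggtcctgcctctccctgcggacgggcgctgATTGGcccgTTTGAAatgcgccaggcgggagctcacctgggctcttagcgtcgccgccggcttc
KIF4A (GRCh38.p14, chrX:70290004-70290103, plus strand): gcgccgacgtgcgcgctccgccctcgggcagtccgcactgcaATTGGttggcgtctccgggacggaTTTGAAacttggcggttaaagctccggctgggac
KIF22 (GRCh38.p14, chr16:29790651-29790750, plus strand): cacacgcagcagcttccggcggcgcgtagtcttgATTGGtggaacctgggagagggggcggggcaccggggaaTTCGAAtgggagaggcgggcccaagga
KIF2C (GRCh38.p14, chr1:44739737-44739836, plus strand): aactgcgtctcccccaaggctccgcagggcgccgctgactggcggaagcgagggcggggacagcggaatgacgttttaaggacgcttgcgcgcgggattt
KIF20A (GRCh38.p14, chr5:138179012-138179111, plus strand): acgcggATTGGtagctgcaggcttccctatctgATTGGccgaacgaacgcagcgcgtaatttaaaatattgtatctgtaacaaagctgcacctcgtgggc
KIF1C (GRCh38.p14, chr17:4997850-4997949, plus strand): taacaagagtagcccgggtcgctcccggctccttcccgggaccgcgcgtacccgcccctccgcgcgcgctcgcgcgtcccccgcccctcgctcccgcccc

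**Figure D2:**
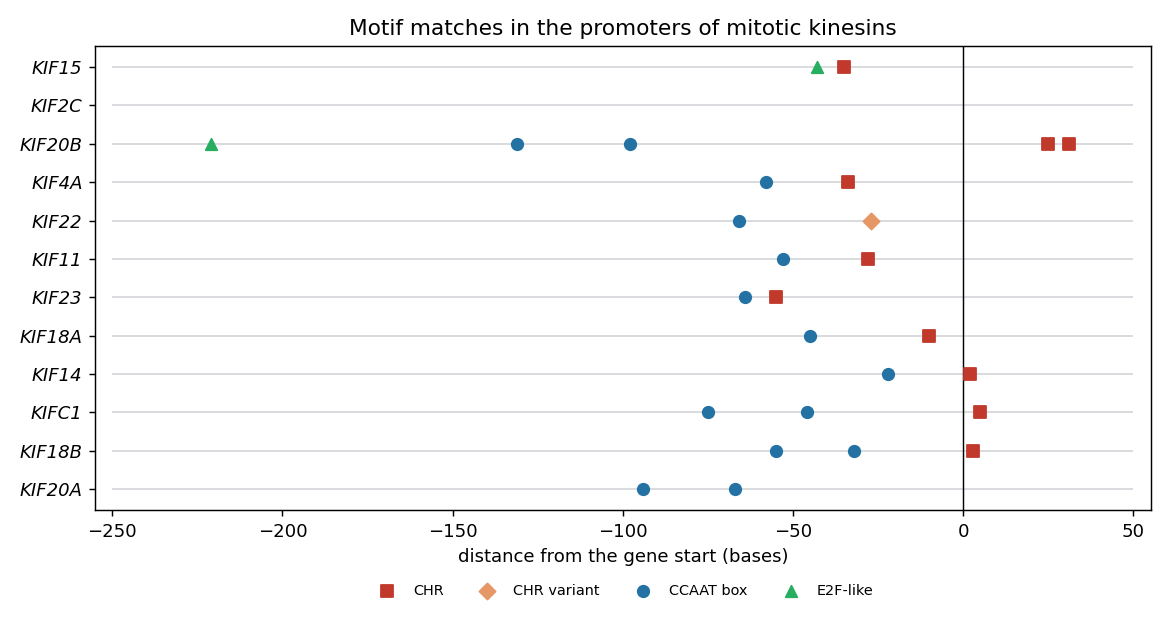
Position of motif matches (x axis, bases from the gene start, upstream negative) in the promoters of the 12 mitotic kinesins, ordered from the largest fall (top) to the highest value (bottom). Squares mark TTTGAA (CHR), the diamond TTCGAA, circles CCAAT and triangles TTTNNCGC; squares lie near the start in 9 genes, mostly with circles to their left.

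Of the motors that make the spindle bipolar, both plus-end motors fell and the minus-end motor did not pass the test. KIF15, a kinesin-12 that bundles spindle fibres and can keep a spindle bipolar when KIF11 is blocked, had log2 intensities of 6.78 and 6.95 on the DZNep arrays and 7.91 and 8.02 on the DMSO arrays. The groups were clearly apart, and the log2 fold change of −1.10 had an SE of 0.10 (limma adjusted p = 0.000323). KIF11, the Eg5 motor that slides antiparallel microtubules to push the poles apart, had 8.09 and 7.96 on the DZNep arrays and 8.39 and 8.47 on the DMSO arrays, again without overlap. It was 1.32-fold lower, a log2 difference of −0.40 ± 0.10 (SE; limma adjusted p = 0.0318). KIFC1, the minus-end motor that focuses poles and gathers extra centrosomes, had 8.84 and 8.77 on the DZNep arrays and 8.72 and 8.93 on the DMSO arrays. Its DZNep arrays lay between the DMSO arrays, and the 95% interval of its log2 fold change was −0.26 to 0.22. A second KIFC1 probe set gave −0.02, equal at this rounding to the one used.

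Motors that act on chromosomes and on microtubule ends at kinetochores were lower in part. KIF2C, or MCAK, a kinesin-13 that takes tubulin off microtubule ends and frees wrongly attached chromosomes, had 8.16 and 8.23 on the DZNep arrays and 8.82 and 8.83 on the DMSO arrays. Its DMSO arrays were nearly equal, and it fell 1.54-fold (log2 difference −0.63 ± 0.09, SE; limma adjusted p = 0.00318). KIF22, a chromokinesin that pushes chromosome arms away from the poles, had 8.47 and 8.49 on the DZNep arrays and 8.83 and 8.95 on the DMSO arrays and fell by 0.40 on the log2 scale (limma adjusted p = 0.0289). Its 2 probe sets gave log2 fold changes of −0.40 and −0.41 from near-equal intensities, so they may not be independent measurements. Both missed the threshold when all probe sets were tested (limma adjusted p = 0.0587 and 0.0616). The other called kinesins were not read in that fit.

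KIF4A, the other chromokinesin, which also sets the length of the midzone, had 7.82 and 7.84 on the DZNep arrays and 8.07 and 8.47 on the DMSO arrays. Both DZNep arrays were below both DMSO arrays, but the DMSO arrays were far apart, and the log2 fold change of −0.45 missed the threshold (limma adjusted p = 0.0641). Leaving out DMSO replicate 1 moved it to −0.64, past the threshold (limma adjusted p = 0.0108), and leaving out DMSO replicate 2 to −0.25 (0.123). The near-identical copy KIF4B has no probe set of its own here, and a probe set given to both genes had −0.35 (limma adjusted p = 0.325 over all probe sets), so transcripts of the pair on this probe set cannot be told apart.

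KIF18A, a kinesin-8 that damps the swing of chromosomes at the metaphase plate, had 7.22 and 7.44 on the DZNep arrays and 7.54 and 7.49 on the DMSO arrays. Its groups were separated by a narrow margin, and its log2 fold change of −0.19 did not pass (limma adjusted p = 0.371). KIF18B, which trims astral microtubules, had 7.66 and 7.59 on the DZNep arrays and 7.56 and 7.68 on the DMSO arrays, overlapping groups with a 95% interval of −0.21 to 0.23 for the log2 fold change.

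Cytokinesis kinesins were mixed, even within the kinesin-6 family. KIF20B, needed for the final separation of daughter cells, had 7.87 and 7.90 on the DZNep arrays and 8.45 and 8.54 on the DMSO arrays. It fell 1.53-fold with no overlap (log2 difference −0.61 ± 0.09, SE; limma adjusted p = 0.0038). KIF23, or MKLP1, which forms centralspindlin with RACGAP1, had 8.28 and 8.31 on the DZNep arrays and 8.62 and 8.73 on the DMSO arrays and fell 1.3-fold (log2 difference −0.38; limma adjusted p = 0.0356). KIF20A, or MKLP2, which carries the chromosomal passenger complex to the midzone, had 8.06 and 8.04 on the DZNep arrays and 7.86 and 8.19 on the DMSO arrays. Its DZNep arrays fell between the DMSO arrays, with a 95% interval of −0.25 to 0.30. KIF14, which recruits citron kinase to the midbody, had 8.52 and 8.54 on the DZNep arrays and 8.59 and 8.80 on the DMSO arrays, where the DZNep arrays were lower by a small margin and the log2 fold change of −0.16 did not pass (limma adjusted p = 0.438).

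**Figure D3:**
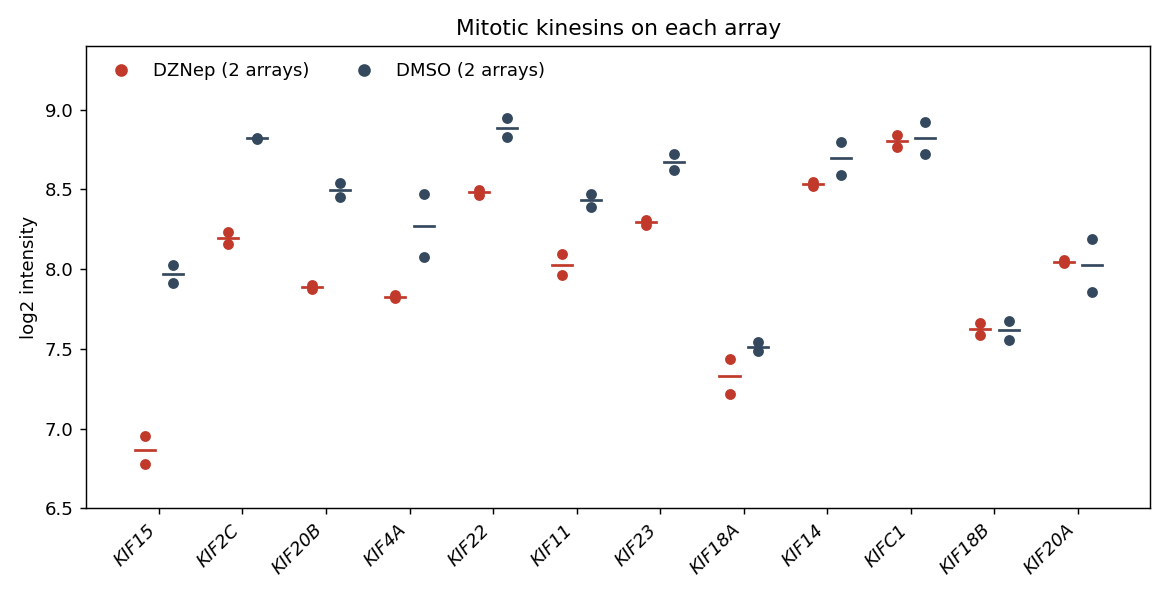
Log2 intensity (y axis) of the 12 mitotic kinesins on each array, DZNep in red left of DMSO in dark blue, with points for arrays and bars for group means of 2 arrays. The groups do not overlap for the 9 genes on the left and overlap for KIFC1, KIF18B and KIF20A; levels of different genes come from different probes and are not comparable.

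Over the mitotic kinesins, both DZNep arrays lay below both DMSO arrays for 9 of 12 and above them for none, where 23.9% of all genes lay wholly below and 25.9% wholly above. Among the 29 others the same counts were 8 below and 8 above. The replicates of DMSO differed in this set, with a median log2 difference of −0.11 (replicate 1 minus replicate 2) over the mitotic kinesins and −0.01 over all genes, and the part of this gap in the results was not tested beyond leaving arrays out. KIF15, KIF2C and KIF20B passed under every alternative in which they were tested. The calls of KIF11, KIF22 and KIF23 ended without either DZNep array or without DMSO replicate 2, with limma adjusted p of up to 0.338, 0.2 and 0.262, and the count of lower mitotic kinesins was then 3 in each case. Of all genes, 3.99% and 4.6% were called lower without DZNep replicate 1 and 2, and 9.04% without DMSO replicate 2, so in that last setting fewer mitotic kinesins and more genes in all were called. These calls also ended when 16 was subtracted from every intensity before taking log2 (limma adjusted p = 0.0681, 0.0646 and 0.0751), as did those of KIF2A and KIF1C (0.0831 and 0.0664). In bulk RNA, fewer cells in G2 and mitosis and less of these RNAs per cell cannot be told apart.

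Among the other kinesins, the members that fell were 1 kinesin-4 gene and 2 kinesin-13 genes. KIF21B, a kinesin-4 that regulates microtubule growth in neurons and lymphocytes, had 8.11 and 8.20 on the DZNep arrays and 8.94 and 8.85 on the DMSO arrays. It fell 1.68-fold with well separated arrays (log2 difference −0.75 ± 0.10, SE; limma adjusted p = 0.00159), and the call held under every alternative run. KIF2A, a microtubule-shortening motor of spindle poles and neurons, had 8.97 and 8.99 on the DZNep arrays and 9.44 and 9.29 on the DMSO arrays and fell by 0.38 on the log2 scale (limma adjusted p = 0.0381). KIF24, which shortens centriolar microtubules and holds back cilium formation, had 6.23 and 6.25 on the DZNep arrays and 6.70 and 6.57 on the DMSO arrays and fell by 0.39 on the log2 scale (limma adjusted p = 0.0333). With KIF2C, 3 of the 4 kinesin-13 genes thus fell, where 6.68% of all genes were called lower. The remaining one, KIF2B, had 0.21 (limma adjusted p = 0.476) with overlapping groups. Kinesin-13 is 1 of 13 families here and was not tested as a set. The calls of KIF2A and KIF24 ended without either DZNep array or without DMSO replicate 1, with limma adjusted p of up to 0.236 and 0.223. Counting KIF2A, KIF2B and KIF4B with the mitotic kinesins, since they also act in division, gave 7 lower of 14 mitotic kinesins and 2 lower of 27 others. KIF2A was the added call, and KIF4B, with no probe set of its own, was not measured.

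KIF1C was the kinesin that rose. This kinesin-3 carries vesicles and is known to act at podosomes, the adhesive structures of macrophages. It had 7.56 and 7.57 on the DZNep arrays and 7.12 and 7.25 on the DMSO arrays, with no overlap. The rise was 1.3-fold (log2 difference 0.38 ± 0.10, SE; limma adjusted p = 0.0365). The call ended without either DZNep array or DMSO replicate 1 (limma adjusted p of up to 0.241) and under median centring (0.0534), with values of 0.32 to 0.44 when an array was left out.

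The remaining bright members of the other kinesins did not pass the test. KIF5B, the heavy chain of conventional kinesin that moves most organelles outside neurons, had 9.47 and 9.43 on the DZNep arrays and 9.81 and 9.65 on the DMSO arrays. Both DZNep arrays were lower, and the difference of −0.28 on the log2 scale (limma adjusted p = 0.124) passed without DMSO replicate 2 (0.0481) and with an intensity trend (0.0381). KIFC3, a minus-end motor, had 8.25 and 8.16 on the DZNep arrays and 7.95 and 7.98 on the DMSO arrays, both DZNep arrays being higher, at 0.24 (limma adjusted p = 0.174).

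KIF27, related to the Hedgehog regulator KIF7, had 8.40 and 8.26 on the DZNep arrays and 8.53 and 8.43 on the DMSO arrays, with a log2 difference of −0.15, short of the threshold (limma adjusted p = 0.472). KIF16B, a motor of early endosomes, had 7.71 and 7.81 on the DZNep arrays and 8.05 and 7.61 on the DMSO arrays, with both DZNep arrays between the DMSO arrays. KIF13B, a kinesin-3 that carries membrane cargo, had 7.82 and 7.80 on the DZNep arrays and 7.76 and 7.44 on the DMSO arrays. KIFC2, another kinesin-14, had 7.84 and 7.68 on the DZNep arrays and 7.47 and 7.64 on the DMSO arrays. The DZNep arrays of both genes were higher than the DMSO arrays by small margins, with log2 fold changes of 0.21 and 0.21 and limma adjusted p of 0.371 and 0.309.

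**Figure D4:**
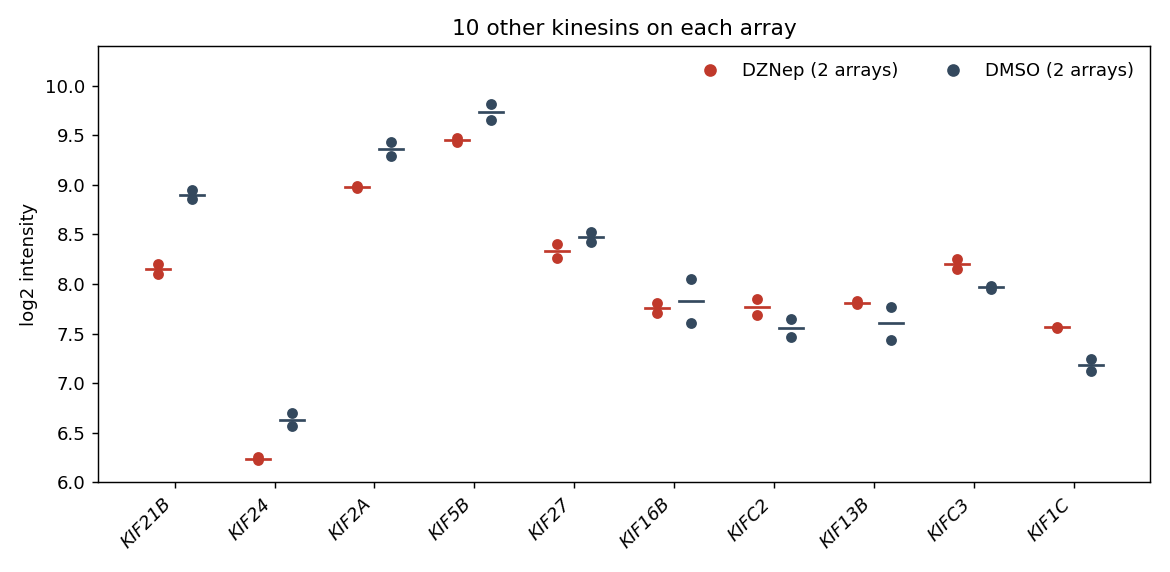
Log2 intensity (y axis) of 10 other kinesins on each array, DZNep in red left of DMSO in dark blue, with points for arrays and bars for group means of 2 arrays. They are the 4 that passed the test and the 8 with the highest mean log2 intensity, 2 of which are in both sets; KIF21B, KIF24 and KIF2A on the left are lower and KIF1C on the right is higher with DZNep.

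None of the remaining members of kinesin-1 to kinesin-4 passed the test. The kinesin-1 heavy chains of neurons had log2 fold changes of 0.03 for KIF5A and −0.003 for KIF5C, and a second probe set of KIF5A gave −0.22. All 4 kinesin-2 genes, which drive transport in cilia and axons, had values below 0, from −0.28 for KIF3A through −0.14 for KIF17 and −0.13 for KIF3B to −0.07 for KIF3C, and none passed. KIF3A came closest, with 6.27 and 6.32 on the DZNep arrays and 6.60 and 6.55 on the DMSO arrays (limma adjusted p = 0.103). Beside KIF1C, the vesicle motors of kinesin-3 had −0.22 for KIF1B, −0.07 for KIF1A and 0.20 for KIF13A. The rest of kinesin-4 had 0.06 for KIF21A and 0.09 for KIF7.

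The members of the smaller families did not pass the test either. KIF19, a kinesin-8 of cilia, had −0.01, while KIF6 and KIF9 of kinesin-9 had 0.03 and −0.17. KIF26A and KIF26B of kinesin-11 had 0.06 and 0.13, KIF12 had 0.06 and KIF25 had 0.05. Of the 29 others, 19 were among the dimmest 50% of all genes by mean log2 intensity, against 2 of the 12 mitotic kinesins. Changes of dim genes would be compressed if a constant was added to the intensities, so the others were also read by brightness. The 10 brighter others had a median of −0.10 with 2 lower, and the 19 dimmer ones a median of 0.03 with 1 lower and 1 higher.

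Not every kinesin has a KIF symbol. CENPE, the kinesin-7 that moves chromosomes to the metaphase plate, had log2 intensities of 7.01 and 6.98 on the DZNep arrays and 7.25 and 7.49 on the DMSO arrays. Its log2 fold change of −0.37 missed the threshold (limma adjusted p = 0.0616). It passed under the replicate block (0.042), median centring (0.0353), quantile normalization (0.0287) and cyclic loess (0.0259). The value lay between −0.50 and −0.25 when 1 array was left out. STARD9, a kinesin-3 of the centriole, had 0.24 (limma adjusted p = 0.203), and its other probe sets gave 0.29 and −0.01.

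Some genes that work with the mitotic kinesins on the spindle were lower as well. Of 31 spindle and midzone partners, 10 fell and none rose, where 6.68% of all genes were called lower and 3.62% higher. Their median log2 fold change was −0.29. The largest falls were in SKA3, at −1.02, and SKA1, at −0.86, which couple kinetochores to shrinking microtubules, and in HMMR at −0.91 and the abscission factor CEP55 at −0.87 (limma adjusted p from 0.000413 to 0.00152). The count of lower partners was between 5 and 6 without either DZNep array or DMSO replicate 2, and 6 when 16 was subtracted. Direct partners, chosen after their values were seen, did not always share the call of their motor, and the difference between partner and motor was not tested. Citron kinase (CIT), the partner of KIF14, fell by 0.60 (limma adjusted p = 0.00353). TPX2, which recruits KIF15 and KIF11 to the spindle, had −0.44 (limma adjusted p = 0.0497), a call lost under quantile normalization (0.102), cyclic loess (0.09) and the subtraction (0.101), and when DMSO replicate 2 (value −0.27) or either DZNep array was left out. RACGAP1, the partner of KIF23, had −0.15, PRC1, the partner of KIF4A, −0.22, and AURKB, the kinase moved by KIF20A, −0.24, and none of these 3 passed (limma adjusted p from 0.23 to 0.485).

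A list of transcription regulators of G2 and mitosis, together with cyclins, CDK1 and CDC25C, was lower in part. Of 22 genes, 8 fell and 1 rose, where 6.68% of all genes were called lower and 3.62% higher. The median of the 22 genes was −0.28. MYBL2, the activator that joins the complex on CHR promoters, had −0.76, and LIN9, a core subunit of that complex, had −0.65 (limma adjusted p = 0.00144 and 0.00257). The mitotic cyclin CCNB2 had −0.72 and the kinase CDK1 −0.66 (limma adjusted p = 0.00735 and 0.00449). The other genes called lower were E2F7 at −0.62, RBL1 at −0.59, E2F8 at −0.56 and CCNA2 at −0.55. Named after their values were seen, LIN37, LIN52 and LIN54 had −0.23, −0.15 and −0.23 and did not pass. The cyclin CCNB1, also named so, had −0.19 with overlapping groups (limma adjusted p = 0.542). FOXM1, the later activator of mitotic genes, had −0.26 and did not pass (limma adjusted p = 0.145), and NFYB, a subunit of the CCAAT-binding factor, rose by 0.60 (limma adjusted p = 0.00563), both named after their values were seen.

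The rest of the microtubule transport system had medians near that of all genes. The share called in either direction was 11.5% of the dynein and dynactin genes, 10.5% of the tubulins and 6.25% of the light chains and adaptors, against 10.3% of all genes. Of 26 dynein and dynactin genes, which drive transport toward microtubule minus ends, 1 rose and 2 fell, with a median of 0.001. The dynein light chain DYNLL1 rose by 0.59, while the dynactin subunits DCTN2 and DCTN3 had −0.46 and −0.36, calls that ended without either DZNep array (limma adjusted p of up to 0.123 and 0.286). Of 16 kinesin light chains and cargo adaptors, KTN1, a kinesin receptor of the endoplasmic reticulum, had −0.45, a call that ended without either DZNep array or DMSO replicate 1 (limma adjusted p of up to 0.135), and no other passed, for a median of 0.05. Of 19 tubulins, the centriolar TUBE1 fell by 1.18 (limma adjusted p = 0.000398) and TUBA4A rose by 0.39, a call that ended without either DZNep array or DMSO replicate 1 (limma adjusted p of up to 0.364), and the median was −0.01. The calls of DCTN3, KTN1 and TUBA4A also ended under the subtraction (limma adjusted p = 0.0846, 0.0511 and 0.0902), that of DCTN3 without DMSO replicate 1, under the replicate block and under quantile normalization (0.0709, 0.0549 and 0.0559), and that of TUBA4A under median centring (0.0583).

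**Figure D5:**
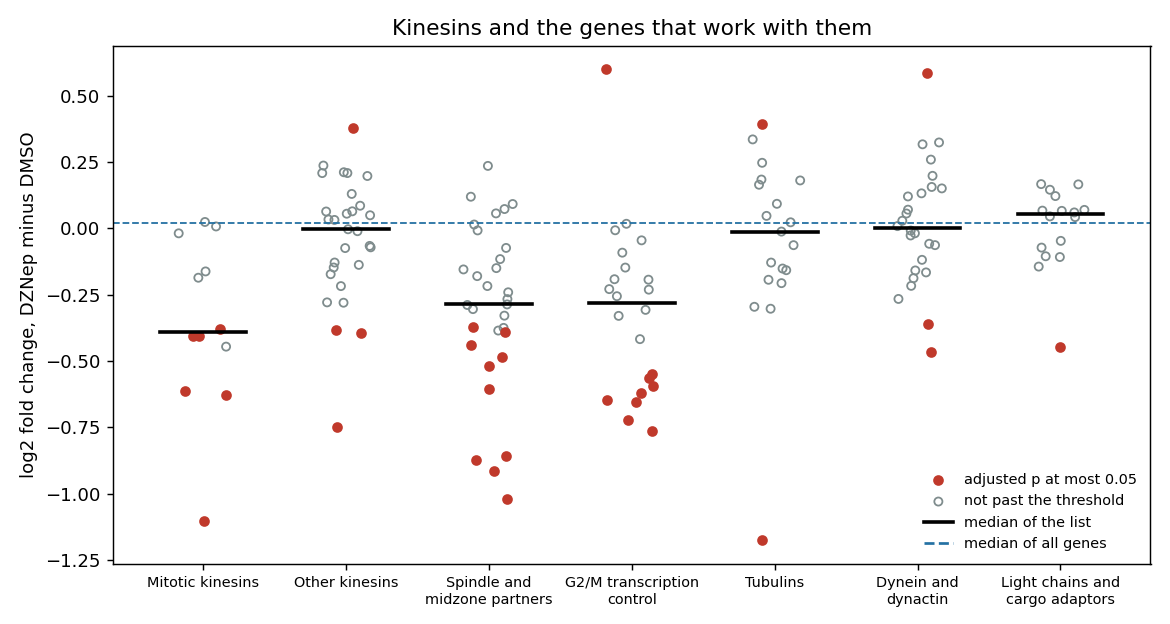
Log2 fold change, DZNep minus DMSO (y axis), of each gene (points) in the kinesin classes and in 5 groups of genes that work with them; filled red points passed an adjusted p of 0.05, black bars are list medians and the dashed line is the median of all genes (0.02). The medians of the mitotic kinesins, spindle partners and G2/M transcription control genes lie at −0.39, −0.29 and −0.28, and the other 4 lie between −0.01 and 0.05.

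Marker genes were read as a description of the cells. Levels of different genes come from different probes and are not comparable, so they do not settle the identity of the cells. The monocytic gene LYZ averaged 12.77 ± 0.08 with DZNep and 12.24 ± 0.12 with DMSO, and MPO 8.55 ± 0.03 with DZNep and 8.70 ± 0.17 with DMSO (log2 intensity, SD, n = 2 arrays each). Not all myeloid markers were bright, as CD14 averaged 7.04 with DZNep and 6.71 with DMSO. The T cell marker CD8A had 7.34 with DZNep and 7.28 with DMSO, and the erythroid KLF1 8.03 with DZNep and 7.99 with DMSO. The mean log2 intensity of the 12 myeloid markers measured was 9.38 and 9.44 on the DZNep arrays and 9.35 and 9.33 on the DMSO arrays. Of these, LYZ and CSF1R rose by 0.53 and 0.47 and FLT3 fell by 0.94, and the part of such shifts in the kinesin values was not tested. Among 7 T and B cell markers, 5 erythroid and megakaryocyte markers and 8 neuronal and epithelial markers, ELAVL4 fell by 0.48 and no other passed. Their mean log2 intensities over the list were 6.27 and 6.21 with DZNep and 6.13 and 6.19 with DMSO for T and B cells, 6.36 and 6.39 with DZNep and 6.28 and 6.41 with DMSO for erythroid cells and megakaryocytes, and 6.03 and 6.03 with DZNep and 6.08 and 6.10 with DMSO for neurons and epithelia. Array medians of log2 intensity lay between 6.99 and 7.08.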

How the data were processed

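The authors deposited linear intensity values, 1 for each probe set on each array, made with RMA per the submitters' processing notes. Its version and software are not given in the sources used. Groups and replicate numbers came from the sample titles. No value was missing and 0 columns were left unused. Values were put on the log2 scale without a pseudocount or other normalization. The lowest deposited intensity was 18.13 and the highest 16502, so a constant may have been added upstream, which would shrink the folds of dim genes. Of 28869 probe sets, 19310 have 1 gene symbol in the platform annotation, which can be old, 1752 several and 7807 are not listed there; 19279 of the first were found by gene ID in the RefSeq table, which changed 0 symbols.

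The 18377 genes were fitted with limma 3.58.1 (R 4.3.3), by lmFit and eBayes on the group term alone with two-sided p-values, with 2 residual and 7.18 prior degrees of freedom and a threshold of 0.05 after Benjamini-Hochberg adjustment over all genes. The code was tested on simulated data. Class medians are descriptions. The members, lists, motifs and tests were chosen with earlier results of these data known. Named were the 12 mitotic kinesins, the other kinesins past the threshold and the 8 with the highest mean log2, up to 4 called genes of each partner list, CENPE, STARD9 and KIF4B. Alternatives were a replicate block, a filter on the dimmest 50% of genes, array scaling by medians, quantiles or cyclic loess, a variance trend with intensity, the mean over probe sets, subtracting 16 before log2, leaving out each array and another class of KIF2A, KIF2B and KIF4B. When an array is left out, its group has a lone sample, taken to vary as the other group does.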

Additional observations from a re-analysis of the deposited data

How the results depend on the processing

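The 6 mitotic kinesins called lower were between 6 and 7 under the replicate block, the intensity trend and the mean over probe sets. Scaling by medians, quantiles or cyclic loess also gave 6 or 7. The wider mitotic class had 7 lower of 14 members. Under the filter on the dimmest 50% of genes, 10 mitotic kinesins were left and 6 were lower, but the filter removed KIF15, while KIF4A was an added call (limma adjusted p = 0.0285), with 16.1% of the genes left called lower. The count was 3 after subtracting 16 from every intensity, where 4.52% of all genes were lower, and between 3 and 7 when 1 array was left out. No mitotic kinesin was called higher under any of the alternatives run. The lower other kinesins were between 1 and 4 without 1 array. The single higher one was lost (0) under the filter on the dimmest 50% of genes, which removes KIF1C, under median centring and after subtracting 16, and the count was between 0 and 1 without 1 array. The mitotic median was between −0.44 and −0.29 without 1 array, and that of the others between −0.043 and 0.049.

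Of the 10 called kinesins, KIF15, KIF2C, KIF20B and KIF21B kept the call under every alternative in which they were tested, and 6 lost it in at least 1. Of the uncalled ones, 2 (KIF4A and KIF5B) passed in at least 1. No called kinesin changed sign, and 12 uncalled ones did in at least 1 alternative (KIF12, KIF16B, KIF18B, KIF19, KIF1A, KIF20A, KIF26A, KIF3B, KIF5A, KIF5C, KIF6 and KIFC1), with all their values between −0.32 and 0.19. The replicate numbers do not pair the samples by any label. With the replicate block, 7 mitotic kinesins were lower, 3 others lower and 1 higher, KIF4A being the added call (limma adjusted p = 0.00954). In that run every gene named here had the same SE of 0.13. Its p-values, also those of CENPE and DCTN3, thus hold no spread of the single gene. Deviations of same-numbered arrays correlated at −0.219 over genes, and a crossed replicate block, chosen after seeing the data, gave 7, 3 and 1.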
